A study of Mus musculus with 4 samples.

Results

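A set of 10 genes that encode the enzymes of collagen hydroxylation and cross-linking was followed in Osr1+ limb cells. They were chosen by name, from the gene symbols of the count tables, and not by a threshold on a measured value. Earlier results of these data were known when they were chosen. The 10 genes were the lysyl oxidases *Lox*, *Loxl1*, *Loxl2*, *Loxl3* and *Loxl4*, the lysyl hydroxylases *Plod1*, *Plod2* and *Plod3*, and the prolyl 4-hydroxylase subunits *P4ha1* and *P4ha2*. All 10 were among the 23284 genes counted, and all 10 passed the filter on low counts that left 15645 genes for the test.

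RNA was sequenced from limb cells of mouse embryos (C57BL/6J) at E13.5, sorted live by FACS for the GFP of the *Osr1* GCE allele. In this allele an eGFP-IRES-CreERt2 cassette was knocked into *Osr1*, which encodes a transcription factor of limb connective tissue, so the allele reports the gene and disables it. GCE/+ cells (n = 2 embryos) kept 1 working copy of *Osr1*, and GCE/GCE cells (n = 2 embryos) kept none. Both groups carried the cassette and no wild-type cells were compared. GFP marked the cells in which the *Osr1* promoter was active, with or without Osr1 protein. The libraries held 52121596 to 61402140 counts, and the members had between 351 and 40318 counts in a library. *Osr1* itself had 81.9 and 79.1 CPM (counts scaled to library size) in GCE/+ cells against 11.9 and 13.9 CPM in GCE/GCE cells. On average its counts fell by 2.64 on the log2 scale (SE 0.108), with an adjusted p of 7.17e-05 in the quasi-likelihood test of edgeR, adjusted by Benjamini-Hochberg.

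Collagen chains are modified in the endoplasmic reticulum before they fold. Prolyl 4-hydroxylases, tetramers of alpha subunits such as P4ha1 and P4ha2 with the beta subunit P4hb, make the 4-hydroxyproline that stabilises the triple helix. Lysyl hydroxylases make hydroxylysine, in the helix (Plod1, Plod3) or in the telopeptides at its ends (Plod2), and some of it is then glycosylated. After secretion, the copper enzymes of the lysyl oxidase family turn lysine and hydroxylysine into aldehydes, which condense into the cross-links between collagen molecules, and between elastin chains. Hydroxylation of the telopeptides therefore decides which kind of cross-link forms, and the cross-links set the stiffness and stability of connective tissue.

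In GCE/GCE cells, *Loxl2* and *Plod2* had higher CPM in both libraries than in either GCE/+ library, by a fold of 1.29 and 1.27. *Lox* had lower CPM in both, with a fold of 0.846. None of these passed the test over all genes. The quasi-likelihood test of edgeR called 0 of the 10 members at an adjusted p under 0.1, where it called 1.78% of all genes tested. At an unadjusted p under 0.05 the test passed 3 of the 10 members (*Loxl2*, *Plod2* and *Lox*), against 10.5% of all genes. DESeq2, the tool that the study used, called 2 of the 10 members, *Loxl2* and *Plod2*, both higher, against 3.25% of the genes it tested in either direction and 1.65% in the higher direction. With offsets for the libraries' trends on transcript length, edgeR called the same 2 members, against 2.31% of genes in either direction and 1.09% in the higher direction. Without GCE/+ replicate 2, and without offsets, it called *Plod2* (higher) and *Loxl1* (lower), against 6.18%. The libraries of the 2 genotypes did not overlap for 5 members, 3 higher and 2 lower in GCE/GCE cells. Over all genes tested the genotypes did not overlap for 38.4%, with 19.2% higher and 19.1% lower. The median log2 fold change of the members was 0.11, and that of all genes tested was 0.0032. All 10 members were lower in GCE/GCE replicate 2 than in replicate 1, by a median log2 difference of -0.172. In size this exceeded the 0.11 between genotypes. The median absolute log2 gap between GCE/GCE libraries was 0.172 for members and 0.0831 for 10303 genes at least as high as the lowest member. Between GCE/+ libraries it was 0.0836 and 0.122.

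**Figure D1:**
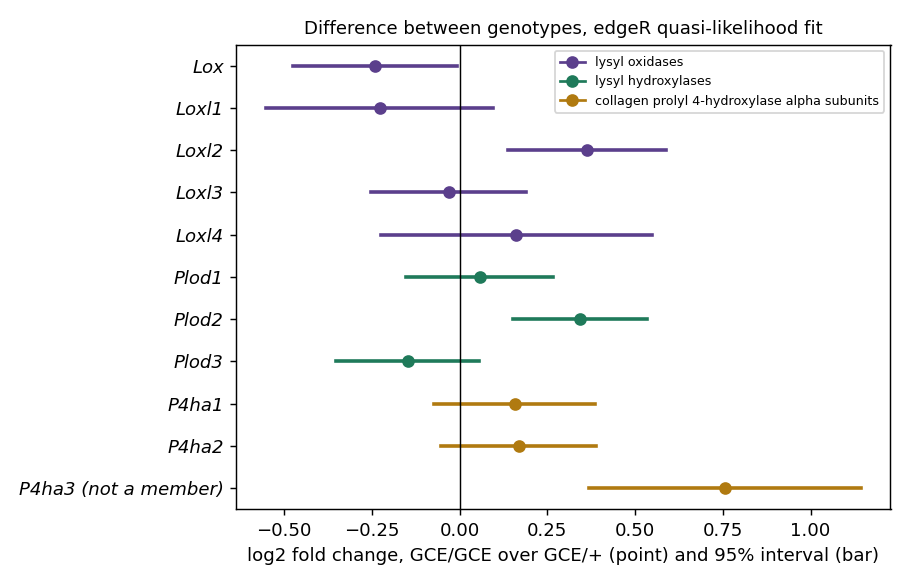
Log2 fold change (GCE/GCE over GCE/+, log2 scale) of the 10 genes, and of the related *P4ha3*, from edgeR's quasi-likelihood fit, with points for the estimate and bars for the 95% confidence interval. The intervals of *Loxl2* and *Plod2* lie above 0 and that of *Lox* below it, while those of the other 7 members cross 0 and that of *P4ha3* lies above it.

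Lysyl hydroxylases had similar levels per kb, as given further on. *Plod2*, the telopeptide lysyl hydroxylase (chromosome 9, 92542223 to 92608428 on the plus strand of GRCm38), had 140.8 and 137.9 CPM in GCE/+ cells against 181.2 and 172.1 CPM in GCE/GCE cells. The 2 GCE/GCE libraries were thus above both GCE/+ libraries, and the gap was wider than the distance within either genotype. Its log2 fold change was 0.34 (SE 0.0834, 95% interval 0.15 to 0.53), with an adjusted p of 0.125 by edgeR and of 0.0306 by DESeq2. The fit with offsets for transcript length gave an adjusted p of 0.0724 (edgeR).

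*Plod1*, which hydroxylates lysines of the helix, had 147.5 and 142.5 CPM in GCE/+ cells against 159.9 and 141.8 CPM in GCE/GCE cells. The genotypes overlapped, and the log2 fold change of 0.057 had a 95% interval of -0.15 to 0.27. *Plod3*, which also carries glycosyltransferase activity, had 132.7 and 118.7 CPM in GCE/+ cells against 117.3 and 109.6 CPM in GCE/GCE libraries. Its values were lower in both GCE/GCE libraries, and the nearest libraries of the genotypes almost met. The log2 fold change of -0.15 had an interval of -0.35 to 0.056 (adjusted p = 0.687, edgeR). Exons of *Plod3* overlap those of *Znhit1* on the opposite strand by 529 bases. The library kit does not mark strand, so reads from these bases cannot be told apart between the genes.

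Both prolyl 4-hydroxylase subunits had somewhat higher mean values in GCE/GCE cells, and neither passed the test. *P4ha1*, which encodes the alpha subunit of the most widespread form of the enzyme, had 183.4 and 164.7 CPM in GCE/+ cells against 205.5 and 182.7 CPM in GCE/GCE cells. These ranges overlapped, and the log2 fold change was 0.16 (95% interval -0.07 to 0.39). *P4ha2*, whose enzyme is known from chondrocytes and bone, had 48.7 and 47.4 CPM against 57.9 and 50.1 CPM. The GCE/GCE libraries were the higher pair, with a log2 fold change of 0.17 (95% interval -0.054 to 0.39, adjusted p = 0.669, edgeR). The ratio of *P4ha1* to *P4ha2* counts was 3.76 and 3.47 in GCE/+ cells against 3.55 and 3.64 in GCE/GCE cells, so the genotypes overlapped. Both proteins need the beta subunit, the protein disulfide isomerase encoded by *P4hb*. That gene had 1369 and 1252 CPM in GCE/+ cells against 1210 and 1222 CPM in GCE/GCE cells (log2 fold change -0.11, adjusted p = 0.844, edgeR).

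*P4ha1*, *P4ha2*, *Plod2* and *Lox* are known to be induced by low oxygen, through HIF binding to the core ACGTG or GCGTG upstream of genes. The sequences just upstream of the RefSeq starts of *P4ha1* and *P4ha2* are shown because these letters stand in both. They are the 250 bases before that start in GRCm38.p6, on the plus strand. They lie at chr10:59323046-59323295 for *P4ha1* and at chr11:54100674-54100923 for *P4ha2*. In GENCODE M21 *P4ha2* starts earlier, at 54100095, so its printed bases lie inside that gene model. The sequence of *Plod3* also held both motifs and is not shown. Capitals mark ACGTG and GCGTG, searched on both strands with overlapping matches counted, so that a match on the minus strand reads CACGT or CACGC.
P4ha1: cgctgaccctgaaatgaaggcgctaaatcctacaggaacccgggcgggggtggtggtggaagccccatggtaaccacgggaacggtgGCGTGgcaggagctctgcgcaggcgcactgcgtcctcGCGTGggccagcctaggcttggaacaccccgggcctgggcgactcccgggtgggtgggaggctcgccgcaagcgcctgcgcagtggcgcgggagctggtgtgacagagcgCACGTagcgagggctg
P4ha2: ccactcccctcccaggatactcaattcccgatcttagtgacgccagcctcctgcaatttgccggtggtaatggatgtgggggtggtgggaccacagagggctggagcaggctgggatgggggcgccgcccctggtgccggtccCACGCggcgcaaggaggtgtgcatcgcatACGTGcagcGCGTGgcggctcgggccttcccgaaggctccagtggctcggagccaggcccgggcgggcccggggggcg
In *P4ha1* the matches began 163 bases (GCGTG), 126 bases (GCGTG) and 16 bases (ACGTG) before the start, and in *P4ha2* 107 bases (GCGTG), 78 bases (ACGTG) and 69 bases (GCGTG) before it. Promoter entries were available for 5 members, which were *P4ha1*, *P4ha2*, *Plod1*, *Plod3* and *Loxl4*. There was no entry for *Lox*, *Loxl1*, *Loxl2*, *Loxl3* and *Plod2*, so these were not searched. In the 300 bases around the start, all 5 held at least 1 of the 2 motifs and 3 of them held ACGTG. Of 32851 promoters of the same length, 43.8% held either motif and 19.6% held ACGTG. These matches describe letters only, and binding was not measured here.

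Lysyl oxidases showed values in both directions. *Loxl2*, an oxidase with scavenger receptor domains that cross-links collagens including type IV (chromosome 14, 69609068 to 69695834 on the plus strand of GRCm38), had 512.8 and 512.1 CPM in GCE/+ cells. In GCE/GCE cells it had 694.5 and 623.5 CPM. The 2 GCE/+ libraries were nearly equal and both GCE/GCE libraries were above them. The log2 fold change was 0.36 (SE 0.0988, 95% interval 0.14 to 0.59), with an adjusted p of 0.170 by edgeR, of 0.0185 by DESeq2 and of 0.0762 with the offsets for transcript length (edgeR).

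*Lox*, the founding member, which cross-links fibrillar collagens and elastin, had 246.4 and 251.9 CPM in GCE/+ cells. In GCE/GCE cells it had 227.4 and 194.3 CPM, both lower. The difference between GCE/GCE replicates 2 and 1, -0.227 on the log2 scale, was close to the log2 fold change of -0.24 with its SE of 0.102 (adjusted p = 0.456, edgeR). *Loxl1*, needed for the upkeep of elastic fibres, had 63.3 and 47.2 CPM in GCE/+ cells against 50.5 and 43.8 CPM in GCE/GCE libraries. Its 2 GCE/+ libraries differed by -0.423 on the log2 scale (replicate 2 minus replicate 1), more than the log2 fold change of -0.23, and the genotypes overlapped.

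*Loxl3* and *Loxl4*, which share the scavenger receptor domains of *Loxl2*, had the lowest levels per kb of the family. *Loxl3* had 39.1 and 36.1 CPM in GCE/+ cells against 37.2 and 36.4 CPM in GCE/GCE libraries. The difference was -0.031 on the log2 scale, with a 95% interval of -0.25 to 0.19. *Loxl4* had 8.16 and 6.71 CPM in GCE/+ cells against 9.29 and 7.37 CPM in GCE/GCE cells. Both genes overlapped between the genotypes, and the interval of *Loxl4* was the widest of the family (-0.23 to 0.55). *Loxl3* overlaps *Htra2* on the opposite strand by 535 bases of exon, with the same limit on strand as above.

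**Figure D2:**
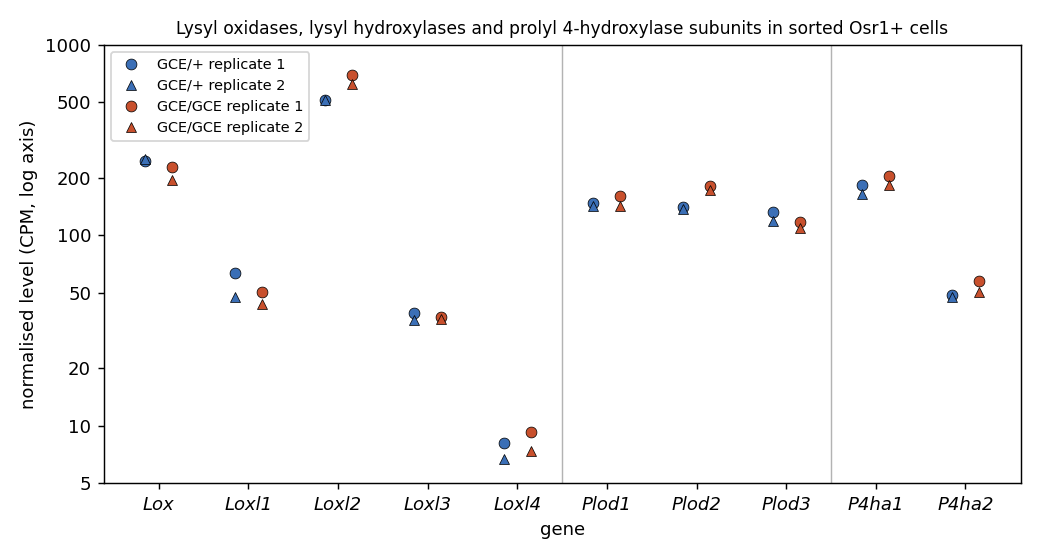
CPM (counts scaled to library size, log axis) of the 10 genes in each of the 4 libraries, 2 GCE/+ and 2 GCE/GCE. Each point is 1 library (circles replicate 1, triangles replicate 2, blue GCE/+, orange GCE/GCE), *Loxl2* is the highest of the genes in every library and *Loxl4* the lowest, and the points of *Loxl2*, *Plod2*, *P4ha2*, *Lox* and *Plod3* do not overlap between the genotypes.

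Levels can be set beside each other only per length, so CPM were divided by the spliced length of each gene in kilobases. In GCE/+ cells *Loxl2* was the highest, with 168.5 ± 0.16 CPM per kb (SD, n = 2). Its mean over all 4 libraries was above that of 98.4% of the tested genes with a known length. In GCE/+ cells *Lox* followed with 52.2 ± 0.815. *Plod1* with 44.7 ± 1.08, *P4ha1* with 42.3 ± 3.22, *Plod3* with 38.3 ± 3.01 and *Plod2* with 37.5 ± 0.564 stood close together. Within these 4, neighbours in the order differed by less than the sum of their SDs. *P4ha2* had 20.6 ± 0.39 and *Loxl1* 16.7 ± 3.45 CPM per kb, and *Loxl3* and *Loxl4* closed the order with 9.18 ± 0.529 and 1.99 ± 0.274. In GCE/GCE cells *Loxl2* led with 216.6 ± 16.5 CPM per kb. *Plod2* moved from rank 6 to rank 2, with 47.6 ± 1.74, and *Lox* from rank 2 to rank 5, with 44.1 ± 4.9, but neighbours from rank 2 to rank 5 differed by less than the sum of their SDs. Without the division by length, or with coding length, 4 of the 10 members kept their rank in GCE/+ cells.

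The make-up of the families followed from these values. *Loxl2* took 67.1% and 68.4% of the summed lysyl oxidase level per kb in GCE/+ cells against 75.4% and 76.0% in GCE/GCE cells. The share of *Lox* was 20.5% and 21.4% against 15.7% and 15.1%, and that of *Loxl1* was 7.64% and 5.82% against 5.06% and 4.93%. For these 3 genes the genotypes did not overlap, nor did they for *Loxl3* (3.8% and 3.6% against 3.0% and 3.3%). Shares of a family add up to the whole, so a higher share of *Loxl2* lowers those of the others. The CPM of *Loxl1* and *Loxl3* themselves overlapped between the genotypes. Among lysyl hydroxylases, the share of *Plod2* was 30.6% and 31.7% against 36.5% and 37.5%, while *Plod3* had 32.7% and 30.9% against 26.7% and 27.1%. *Plod1* overlapped, with 36.7% and 37.5% against 36.8% and 35.4%. Among the prolyl 4-hydroxylase alpha subunits, with *P4ha3* included, the share of *P4ha1* was 54.8% and 55.7% in GCE/+ libraries against 49.6% and 51.5%. That of *P4ha2* was 25.7% and 28.3% against 24.7% and 24.98%, and that of *P4ha3*, which is no member, was 19.5% and 15.9% against 25.7% and 23.5%. As shares of the plain counts of the family, *Loxl2* had means of 59.5% and 68.5% and *Plod2* of 34.0% and 40.1% in GCE/+ and GCE/GCE cells. The 95% binomial intervals of these count shares (Wilson) were at most 1.29 percentage points wide and cover counting error only. Per kb of coding sequence the family looked different, with mean shares in GCE/+ cells of 46.6% for *Loxl2* and 42.8% for *Lox*, and in GCE/GCE cells of 56.7% and 34.2%. *Loxl2* had the larger share on each of the 3 scales, but its lead over *Lox* in GCE/+ cells was small on this one. The direction of the difference between the genotypes was the same for both genes on all 3 scales.

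**Figure D3:**
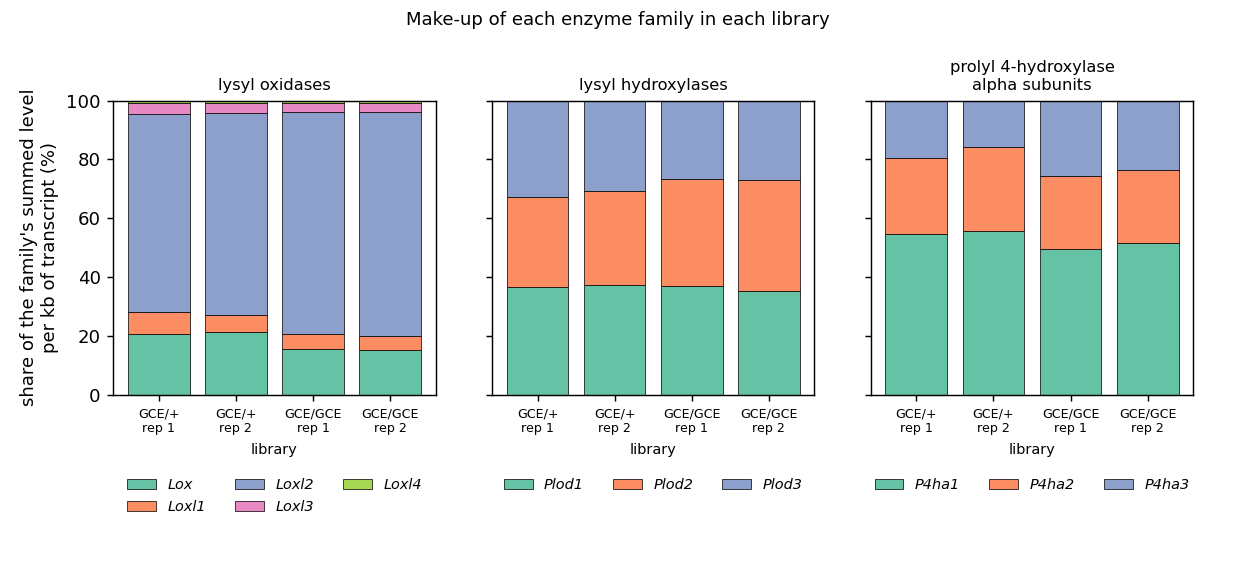
Share (percent) of each gene in the summed level per kb of its family, for lysyl oxidases, lysyl hydroxylases and prolyl 4-hydroxylase alpha subunits with *P4ha3*, as stacked bars for the 4 libraries. *Loxl2* holds 67.1% to 76.0% of the lysyl oxidases on this scale, and its share and that of *Plod2* are higher in both GCE/GCE libraries.

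Ratios between 2 members of a library do not depend on its scaling, and were computed for pairs chosen after their values were seen. Counts of *Loxl2* were 2.08 and 2.03 times those of *Lox* in GCE/+ cells and 3.05 and 3.21 times in GCE/GCE cells, a log2 difference of 0.61. The ratio of *Plod2* to *Plod3* counts was 1.06 and 1.16 against 1.54 and 1.57, a log2 difference of 0.49. An exact two-sided permutation test of either ratio gave p = 0.333, which is the smallest that 2 against 2 libraries can give.

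The members were also set against type I collagen, a fibrillar collagen among their substrates. *Col3a1*, whose values are given further on, was not part of this sum. The summed *Col1a1* and *Col1a2* level was 9104 and 8073 CPM in GCE/+ cells against 8521 and 7109 CPM in GCE/GCE cells, which overlapped. On the log2 scale the ratio of *Loxl2* to this sum was -4.15 and -3.98 in GCE/+ cells against -3.62 and -3.51 in GCE/GCE cells, a difference of 0.50. For *Plod2* the ratio was -6.01 and -5.87 against -5.56 and -5.37, a difference of 0.48. The ratio was higher in both GCE/GCE libraries for 6 of the 10 members, which were *Loxl2*, *Loxl4*, *Plod1*, *Plod2*, *P4ha1* and *P4ha2*, against 21.5% of all genes tested. Of these, *Loxl4*, *Plod1* and *P4ha1* overlapped between the genotypes in their own CPM. The sum, like all 10 members, was lower in GCE/GCE replicate 2 than in replicate 1, which narrows the spread of such ratios. For *Lox*, *Loxl1*, *Loxl3* and *Plod3* it overlapped.

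Beyond the members, 53 genes of collagen biosynthesis, its substrates and the response to low oxygen were listed, and 52 of them were tested. edgeR called 4, all higher in GCE/GCE cells. *Fmod*, which encodes the collagen-binding proteoglycan fibromodulin, had 52.6 and 43.6 CPM in GCE/+ cells against 88.5 and 77.7 CPM in GCE/GCE cells, and rose by 0.79 (log2; SE 0.11, adjusted p = 0.0268, edgeR). *Col11a1*, a minor fibrillar chain that is abundant in cartilage, had 256.2 and 324.7 CPM against 501.2 and 499.7 CPM, and rose by 0.78 (SE 0.123, adjusted p = 0.0343, edgeR). *Fmod* was the only gene that edgeR called among 6 scaffold and binding proteins of lysyl oxidases, and *Col11a1* the only one among 11 fibrillar chains. *Fmod* is also in the list of tendon markers and *Col11a1* in that of cartilage markers, whose values are given with the other markers.

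The other 2 calls came from 12 genes known to be induced by low oxygen. Of these, 10 had positive log2 fold changes, and the median of the list was 0.16. Over all genes, 7971 of 15645 had positive values and 1.78% were called. *Adm* and *Egln3* went the other way, with log2 fold changes of -0.37 and -0.17. *Adm* was lower in both GCE/GCE libraries, while *Egln3* overlapped. *Bnip3*, a mitophagy receptor, had 32.9 and 29.9 CPM in GCE/+ cells against 43.8 and 44.3 CPM in GCE/GCE cells, and rose by 0.49 (adjusted p = 0.0738, edgeR). *Pdk1*, a kinase that restrains pyruvate dehydrogenase, had 64.9 and 66.2 CPM against 85.2 and 83.4 CPM, and rose by 0.36 (adjusted p = 0.0709, edgeR). *Slc2a1*, the glucose transporter, and *Vegfa*, both in the same list, overlapped between the genotypes, with log2 fold changes of 0.052 and 0.083. *Car9* (at 1.07 to 2.05 CPM), *Pgk1* and *Ldha* were higher in both GCE/GCE libraries and were not called. Their log2 fold changes were 0.80, 0.26 and 0.19. Both GCE/GCE libraries were higher for 5 of the 12 genes and lower for 1, against 19.2% and 19.1% of all genes. Oxygen was not measured.

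None of the enzymes and chaperones around the members passed edgeR's test as first fitted, and *P4ha3* was the closest to its threshold. In the list of other prolyl hydroxylation genes, 0 of 8 passed, 2 had an unadjusted p under 0.05 and DESeq2 called 1. That gene was *P4ha3*, the remaining prolyl 4-hydroxylase alpha subunit, with 37.5 and 27.0 CPM in GCE/+ cells against 61.2 and 47.9 CPM in those without *Osr1*. Its log2 fold change of 0.76 (SE 0.169) was larger than that of any member, with an adjusted p of 0.102 by edgeR, of 0.0787 with the offsets for transcript length (edgeR) and of 5.51e-04 by DESeq2. Both GCE/GCE libraries were above both GCE/+ libraries, although the libraries of each genotype also stood apart from each other.

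For collagen folding and export, 0 of 5 genes tested passed and 4 were lower in both GCE/GCE libraries. *Serpinh1*, the collagen chaperone, had 1817 and 1538 CPM in GCE/+ cells against 1512 and 1489 CPM (log2 fold change -0.16, adjusted p = 0.755, edgeR). *Fkbp10*, a chaperone that partners Plod2, had 260.1 and 242 CPM against 224.2 and 214.8 CPM, opposite in direction to *Plod2* itself (log2 fold change -0.19, adjusted p = 0.527, edgeR). *Mia3* was listed at 0 in all 4 libraries and was not tested. Whether this 0, or that of *Hba-a1* given with the markers, reflects expression or counting was not examined. In these 5 genes neither an unadjusted p under 0.05 nor a DESeq2 call occurred.

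Of 2 collagen galactosyltransferases 0 passed by edgeR, with 0 at an unadjusted p under 0.05 and 0 by DESeq2. The smaller p was that of *Glt25d2* (now *Colgalt2*), with 14.3 and 14.0 CPM in GCE/+ cells against 12.2 and 12.5 CPM (log2 fold change -0.20, adjusted p = 0.654, edgeR). Of 8 genes of procollagen trimming 0 passed by edgeR or DESeq2 and 1, *Adamts3*, had an unadjusted p under 0.05. *Adamts3*, a procollagen N-proteinase, had 23.3 and 24.1 CPM in GCE/+ cells against 28.7 and 29.8 CPM in GCE/GCE cells (log2 fold change 0.30, adjusted p = 0.274, edgeR). *Bmp1*, which also releases active Lox from its precursor, overlapped between the genotypes with a log2 fold change of 0.065.

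The fibrillar chains, the substrates of the enzymes, differed in direction. *Col1a1* and *Col1a2*, the chains of type I collagen, overlapped between the genotypes, with log2 fold changes of -0.16 and -0.12. *Col3a1* had 9550.0 and 8788 CPM in GCE/+ cells against 7718 and 6846 CPM in GCE/GCE cells, with a log2 fold change of -0.33 and an adjusted p of 0.274 by edgeR and of 0.0545 by DESeq2. The cartilage chain *Col2a1* had 359.0 and 571.4 CPM against 789.9 and 878.5 CPM, a log2 difference of 0.84 with an SE of 0.192 (adjusted p = 0.106, edgeR). In both, the genotypes did not overlap. Over the 11 chains DESeq2 called 2 higher, *Col11a1* and *Col24a1* (adjusted p = 0.0298), and 2 lower, *Col3a1* and *Col5a3* (0.0374). Over the 11 chains 6 were higher and 2 lower in both GCE/GCE libraries, and the median log2 fold change was 0.055, turning to -0.026 with the offsets for transcript length.

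**Figure D4:**
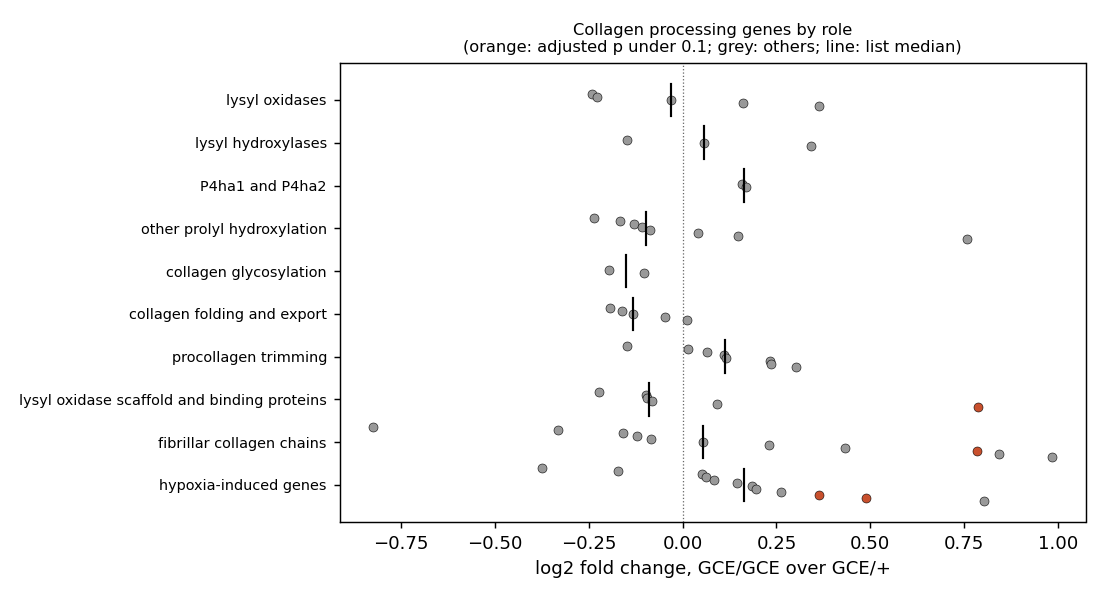
Log2 fold change (GCE/GCE over GCE/+, log2 scale) of every tested gene in the lists, 1 row per list with the 3 families of members on top, and a line for the median of each list. Orange points mark the 4 genes that edgeR called at an adjusted p under 0.1, *Fmod*, *Col11a1*, *Bnip3* and *Pdk1*, none of which is a member.

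Markers of several cell types differed between the sorted samples. In a bulk sample, fewer cells of a type and less RNA per cell cannot be told apart. All 8 mesenchyme markers were detected, with a summed level of 17420 and 16110 CPM in GCE/+ cells against 14860 and 13440 CPM in GCE/GCE cells, and edgeR called *Osr1* alone, while DESeq2 called 4 of the 8 lower, *Osr1*, *Dcn* (adjusted p = 0.00111), *Col3a1* (0.0545) and *Lum* (0.0695). These lists share genes with those above, such as *Col1a2*, *Col3a1*, *Col2a1*, *Col11a1* and *Fmod*. All 12 cartilage markers were higher in both GCE/GCE libraries and 4 were called, at a median log2 fold change of 0.84 and summed levels of 964.5 and 1399 CPM against 1979 and 2123 CPM. Of 6 tendon markers 3 were called higher and 1 lower, with summed levels of 408 and 344 CPM against 478 and 442 CPM. All 10 macrophage markers were lower and 8 were called, with summed levels of 306 and 308 CPM against 191.1 and 134.3 CPM. Of 5 endothelial markers 3 were lower in both GCE/GCE libraries and edgeR called 0, DESeq2 1 and an unadjusted p under 0.05 held for 3, with summed levels of 88.7 and 71.6 CPM against 68.3 and 54.5 CPM. edgeR called 0 of 6 muscle markers (132.6 and 149.7 against 172.4 and 146.7 CPM), 0 of 3 erythroid markers tested (454 and 154.3 against 303.3 and 272.9 CPM, with *Hba-a1* at 0) and 0 of 4 epidermal markers (6.01 to 8.28 CPM). DESeq2 called 0 in these 3 lists, where 1, 0 and 2 markers had an unadjusted p under 0.05 by edgeR.

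The 2 GCE/+ libraries were not alike in cartilage markers, whose median was higher in replicate 2 than in replicate 1 by 0.747 on the log2 scale. Other marker medians differed between the same 2 libraries in either direction. Tendon, endothelial and erythroid markers differed by -0.262, -0.316 and -1.48, and mesenchyme and macrophage markers by -0.124 and -0.0219. Muscle and epidermal markers differed by 0.249 and 0.372. Between these 2 libraries *Loxl2* differed by -0.0019 and *Plod2* by -0.031. The part of the cartilage, tendon, macrophage, endothelial and other markers in the members' values was not tested. In GCE/GCE replicate 1 *Xist* had 1142 CPM, against 0.572 to 2.63 CPM in the other 3 libraries, so the sexes of the embryos were not balanced, and its part was not tested either.

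**Figure D5:**
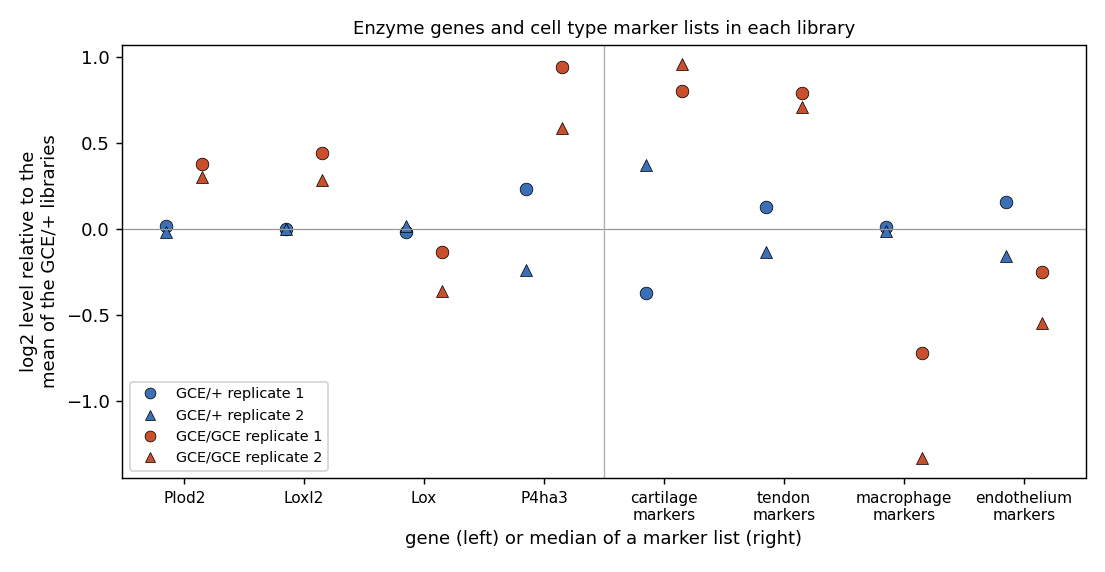
Log2 level in each of the 4 libraries (circles replicate 1, triangles replicate 2, blue GCE/+, orange GCE/GCE) relative to the mean of the GCE/+ libraries, for *Loxl2*, *Plod2*, *Lox*, *P4ha3* and the medians of 4 marker lists. From replicate 1 to replicate 2 of the GCE/+ cells, the cartilage median runs from -0.373 to 0.373. The tendon, endothelium and macrophage medians run the other way, from 0.131 to -0.131, 0.158 to -0.158 and 0.011 to -0.011. *Loxl2* and *Plod2* lie within 0.0153 of 0 there, while the part of these markers in the genes' values was not tested.

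Among 9754 genes of at least 10 CPM on average, 3 had a pattern across the 4 libraries closest to that of *Plod2*, by the Euclidean distance between centred log2 CPM. These were *2010111I01Rik* (distance 0.0184), *Dclk1* (0.022) and *Prss35* (0.0379). *Dclk1*, a microtubule-associated kinase, had 90.3 and 89.8 CPM in GCE/+ cells against 115.5 and 110.8 CPM in GCE/GCE cells. *Prss35* had 65.2 and 63.5 CPM against 82.6 and 81.3 CPM. With 4 libraries such a match is a description.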

How the data were processed

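RNA-seq was made from GFP+ cells sorted from E13.5 limbs of 2 GCE/+ and 2 GCE/GCE embryos. The authors aligned the reads with TopHat2 to mm9, guided by UCSC gene models, and counted them per gene with HTSeq (intersection-strict). The versions of both are not given in the sources used here. The deposited values are raw counts. The 10 members and all gene lists were chosen with earlier results of these data known.

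Genes were filtered with filterByExpr, scaled by TMM and tested with edgeR 4.0.16 (quasi-likelihood, two-sided, R 4.3.3), GCE/GCE against GCE/+, with the study's threshold of 0.1 on the Benjamini-Hochberg adjusted p over 15645 genes. CPM are counts divided by the TMM-scaled library size in units of 1e+06. DESeq2 1.42.0 was the first alternative. Levels per kb used spliced lengths, and coordinates came from GENCODE M21 (GRCm38), which matched 98.0% of the symbols. None were converted from mm9. Upstream sequences came from RefSeq. The procedure was run on simulated data with planted fold changes larger in size than those of any member. These data had no trend on transcript length, so the run does not cover calls at the members' size. Named genes were the members, list genes past the threshold, the gene of smallest p in each list without a call, *P4hb*, the 4 collagen chains *Col1a1*, *Col1a2*, *Col2a1* and *Col3a1*, and the 3 genes most like *Plod2*, the member with the smallest p. *Serpinh1*, *Mia3*, *Bmp1*, *Slc2a1*, *Vegfa*, *Adm*, *Egln3*, *Dcn*, *Lum*, *Col5a3*, *Col11a2* and *Col24a1*, and the ratios of pairs, were chosen after their values were seen. So were *Car9*, *Pgk1* and *Ldha*. Other settings were other scalings, no filter, a higher count minimum, length offsets, the replicate number as a block, and leaving out each library. Analyses used Python 3.11.15, pandas 2.3.3 and scipy 1.17.1. The study's other experiments were not analysed here.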

Additional observations from a re-analysis of the deposited data

How the results depend on the processing

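The 2 libraries per genotype limit every statement here, and the spread within a genotype rests on 1 difference between embryos. The log2 fold changes of the 10 members were recomputed under 12 alternatives each. Of these 120 values 110 kept their direction and their side of the threshold, 7 newly passed it and 3 reversed. The reversed values were 0.023 for *Loxl3* without GCE/+ replicate 1, and -0.021 for *Loxl4* and -0.038 for *Plod1* without GCE/GCE replicate 1. Leaving out each library in turn gave -0.089 to 0.023 for *Loxl3*, -0.021 to 0.32 for *Loxl4*, -0.038 to 0.14 for *Plod1*, -0.37 to -0.13 for *Lox*, 0.28 to 0.44 for *Loxl2* and 0.30 to 0.38 for *Plod2*. It gave -0.42 to -0.0066 for *Loxl1*, with the value nearest 0 without GCE/+ replicate 1, -0.23 to -0.072 for *Plod3*, 0.063 to 0.24 for *P4ha1* and 0.055 to 0.27 for *P4ha2*.

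edgeR called 0 members. DESeq2 called 2 members, the offsets for transcript length 2 and these offsets with the replicate block 1, all of them higher in GCE/GCE cells. Of all 15470 genes with a known length, the offsets with the replicate block called 280, with 137 of them higher. Leaving out a library gave 0 to 2 members, with 0 to 1 higher and 0 to 1 lower. The 2 appeared without GCE/+ replicate 2, where *Plod2* passed (0.33, adjusted p = 0.0984, edgeR) and *Loxl1* passed (-0.42, adjusted p = 0.0735, edgeR). Fold changes had a Spearman rho of 0.251 with transcript length across 15470 genes, which are not independent replicates.

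Of all genes, edgeR called 279. DESeq2 called 502 (255 higher, 247 lower), no filter gave 425 (218 lower) and an adjusted p under 0.05 gave 122 (61 higher, 61 lower). Leaving out a library gave 197 to 984, with 116 to 662 higher and 81 to 440 lower, and the 984 came without GCE/+ replicate 2. Of the other listed genes edgeR called 4, DESeq2 8, no filter 9, the length offsets 8 without and 8 with the replicate block, and the stricter threshold 2. Leaving out a library gave 7 to 12.

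The labels do not say that a replicate number pairs embryos, and same-numbered libraries did not deviate together (correlation 0.00487 over 13469 genes). With the replicate block 280 genes, 0 members and 6 other listed genes were called. These were *Fmod*, *Col11a1*, *P4ha3* (adjusted p = 0.031, edgeR), *Col2a1*, *Col5a3* and *Col11a2*, while *Bnip3* and *Pdk1* no longer passed (0.114 each, edgeR). *Osr1* kept its log2 fold change of -2.64.

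In the order of levels 4 members kept their rank without the division by length and 4 with coding length. Set against the GCE/+ order, the single libraries kept the rank of 5 to 10 members, with 10 and 8 in the GCE/+ libraries and 6 and 5 in the GCE/GCE libraries. Set against the GCE/GCE order, GCE/GCE replicates 1 and 2 kept 7 and 10. Without the division by length the mean shares in GCE/+ and GCE/GCE cells were 59.5% and 68.5% for *Loxl2*, 34.0% and 40.1% for *Plod2*, and 68.5% and 64.2% for *P4ha1* within a family that included *P4ha3*.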
